A study of Mus musculus with 14 samples.

Results

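Chemokines are small secreted proteins that direct the movement of leukocytes, and they act through receptors with 7 membrane-spanning helices. The genes described here are those of the mouse chemokine ligands, the chemokine receptors and the atypical chemokine receptors, taken by their symbols (Ccl, Cxcl, Cx3cl, Ccr, Cxcr, Cx3cr or Ackr followed by a digit). Of 21878 genes listed, 58 matched, namely 23 CC ligands, 12 CXC ligands, 1 CX3C ligand, 18 receptors and 4 atypical receptors. A value of at least 0.1 FPKM (mapped fragments per kilobase of transcript, scaled to library size) in 3 or more mice was required for testing, and 49 of the 58 passed it, among 14912 genes in all. These were 20 CC ligands, 11 CXC ligands, Cx3cl1, 14 receptors and 3 atypical receptors. Of the 9 genes that did not pass, Ccl21b, Ccl26 and Cxcr1 were listed at 0 in all 14 mice. The other 6 were Ackr4, Ccl27b, Ccr3, Ccr9, Cxcl15 and Cxcr2, with at most 2 mice at the required level. Just outside were Ccr9 and Cxcr2 with 2 such mice each and highest values of 0.111 and 0.114 FPKM. Just inside, with 3 such mice each, were Cxcl3, Ccr1l1 and Ccr6, whose highest values were 0.302, 0.205 and 0.146 FPKM. Since 16 of the 49 had fewer than 3 control mice at the required level and 0 had fewer than 3 diabetic mice there, 16 genes passed through the diabetic mice, and counts are also given for the other 33. The 16 were Ackr1, Ackr2, Ccl1, Ccl17, Ccl20, Ccl24, Ccr10, Ccr1l1, Ccr4, Ccr6, Ccr8, Cxcl17, Cxcl2, Cxcl3, Cxcl5 and Cxcr5.

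Kidney RNA came from 14 male C57BL/6J mice, which were 8 weeks old at the start of the study. In the diabetic groups, mice with a global deletion of Cfb (Cfb-/-, n = 4) and WT mice (n = 4) were fed an HFD (60% of calories from fat) for 4 weeks and were then injected with STZ, a toxin of pancreatic beta cells, at 60 mg/kg for 5 days. The control groups, Cfb-/- (n = 3) and WT (n = 3), received chow with 10% of calories from fat and the citrate buffer without STZ. The labels give every sample a time of 34 weeks without its starting point, they repeat the treatment text of the diabetic mice for the controls, and they call the deletion a knockdown, so groups were taken from the sample titles. The paper's schedule began at 8 weeks of age and collected kidneys months after STZ, which places 34 weeks as the age at collection. HFD and STZ were always given together and cannot be told apart, and each mouse gave 1 library. Cfb, which encodes the complement protease of the alternative pathway, was at 56.7 to 130.7 FPKM in the 7 WT mice and at 1.13 to 2.22 FPKM in the 7 Cfb-/- mice. The log2 difference between genotypes was -5.65 in diabetic and -5.48 in control mice (limma adjusted p = 6.24e-10 and 7.19e-09). Markers of kidney tissue were present in all mice, and the proximal tubule gene Slc34a1 stood at 466 FPKM or more throughout. Deposited values summed to 330246 to 488196 FPKM per mouse, and relative depth estimated from the steps between low values was 0.853 to 1. The number of reads is unknown, so a value of 0 means only that the gene is listed at 0. Of the 14 mice, 5 (WT diabetic 2, 3 and 4, and Cfb-/- control 1 and 3) had summed urothelium markers of 8.72 FPKM or more, against 3.15 or less in the other 9.

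As background, inflammatory chemokines such as Ccl2 and Cxcl1 are switched on in injured tubular cells, endothelium and macrophages, largely through NF-kappaB and interferon signalling, and they draw monocytes, T cells and neutrophils into tissue. Homeostatic chemokines such as Cxcl12, Ccl19 and Cxcl13 position cells in bone marrow and lymphoid tissue. Atypical receptors bind chemokines without signalling through G proteins, and they remove or transport their ligands. In diabetic kidney disease the Ccl2 and Ccr2 axis, through which monocytes enter the kidney, is well known.

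Promoters are shown for 5 inducible ligands because NF-kappaB binds next to the start sites of several of them. RefSeq start sites on GRCm38.p6, the build named in the submitters' processing notes, were used, and the window of 250 bases before to 50 bases after each start was searched on both strands for the 10-base NF-kappaB consensus. Of the 58 genes, 44 had an entry and 10 of these (22.7%) held at least 1 match, namely Ackr2, Ccl20, Ccl27a, Ccl9, Ccr3, Ccr6, Cxcl1, Cxcl10, Cxcl2 and Cxcl3. Among all 27025 genes with an entry, 5.14% held a match, and among all 32851 promoters 4.51%. A match is a stretch of letters and not a measured binding site. The sequences of 5 ligands follow, 100 bases each, 5′ to 3′ on the strand of the gene, with the matches in capitals. Cxcl1 lies at chr5:90891130-90891229 (plus strand), Cxcl2 at chr5:90903758-90903857 (plus strand), Cxcl3 at chr5:90785984-90786083 (plus strand), Cxcl10 at chr5:92348966-92349065 (minus strand) and Ccl20 at chr1:83116641-83116740 (plus strand).
Cxcl1: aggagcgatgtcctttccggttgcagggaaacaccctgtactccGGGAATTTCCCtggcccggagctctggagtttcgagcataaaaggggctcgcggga
Cxcl2: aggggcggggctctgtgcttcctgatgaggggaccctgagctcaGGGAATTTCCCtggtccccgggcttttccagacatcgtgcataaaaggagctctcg
Cxcl3: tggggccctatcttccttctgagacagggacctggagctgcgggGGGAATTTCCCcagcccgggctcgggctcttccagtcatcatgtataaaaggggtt
Cxcl10: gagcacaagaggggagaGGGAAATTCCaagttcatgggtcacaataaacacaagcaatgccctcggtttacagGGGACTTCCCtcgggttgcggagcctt
Ccl20: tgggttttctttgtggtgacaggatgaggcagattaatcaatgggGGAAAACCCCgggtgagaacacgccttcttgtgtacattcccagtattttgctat
In Cxcl1, Cxcl2 and Cxcl3 the capitals hold a pair of overlapping matches, one on each strand, whose first bases lie at -71, -97 and -73 from the start. Cxcl10 held 2 separate matches, at -159 and -103, and Ccl20 held 1 on the opposite strand at -80. All 5 of these ligands are described below, and all but Cxcl3 passed the test for diabetes in both genotypes. Of the other genes with a match, Ackr2 and Ccl9 passed in both genotypes, Ccr6 in WT mice alone and Ccl27a in neither. Ccr3 was not tested. The 5 were picked as inducible ligands, and whether a match goes with a rise was not tested.

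In control kidneys the ligands were led by Cx3cl1, the transmembrane ligand fractalkine, at 20.3 ± 1.94 FPKM in WT and 21.2 ± 1.71 FPKM in Cfb-/- mice (mean ± SD, n = 3 each). Cxcl12, a homeostatic ligand, followed at 13.8 ± 2.58 and 18.4 ± 7.22 FPKM. Cxcl16, the other transmembrane ligand, stood at 11.2 ± 1.14 and 9.05 ± 0.596 FPKM. Because FPKM is scaled by transcript length, these levels can be set beside each other. The 36 ligands, those below the filter included, summed to 85.0 to 87.7 FPKM in WT controls and 72.2 to 98.8 FPKM in Cfb-/- controls, whereas the 18 receptors summed to 6.78 to 9.75 and 6.00 to 6.76 FPKM. In diabetic kidneys the ligand sum was 198.2 to 241 FPKM in WT and 164 to 318 FPKM in Cfb-/- mice, and the receptor sum was 16.8 to 31.1 and 19.3 to 31.5 FPKM. Both sums were thus higher in every diabetic mouse than in any control mouse. The 4 atypical receptors summed to 27.4 to 36.2 FPKM in controls and 25.3 to 35.1 FPKM in diabetic mice, nearly all of it Ackr3, and these ranges overlapped.

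**Figure D1:**
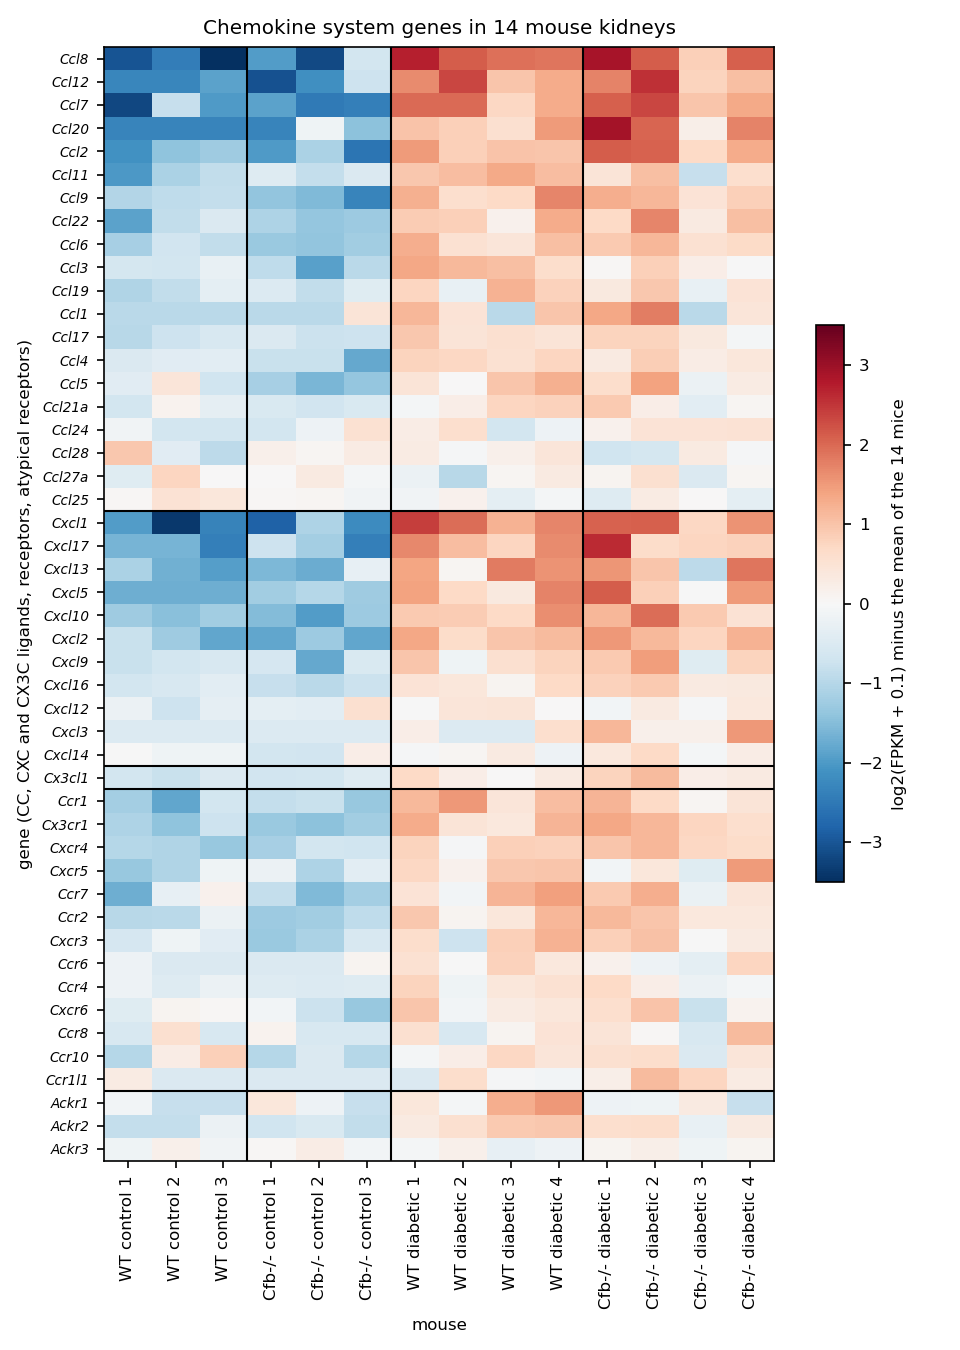
Each row is 1 of 48 of the 49 tested genes and each column 1 of the 14 mice. Colour gives log2(FPKM + 0.1) minus the gene's mean over the 14 mice, values beyond the ends of the scale take the end colours, and black lines part groups and gene classes. Most rows are blue in the 6 control columns and red in the 8 diabetic columns, and the Ackr3 and Ccl25 rows are pale throughout.

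The first question was how the chemokine system differed between diabetic and control kidneys. In WT mice 34 of the 49 genes rose at an adjusted p under 0.05 (limma, Benjamini-Hochberg over all 14912 genes) and 0 fell, where 36.2% of all tested genes rose and 9.97% fell. In the Cfb-/- groups 35 of 49 rose and 0 fell, where 27.4% of all tested genes rose and 6.4% fell. At the study's own criteria, a fold change beyond 2 or 0.5 with an unadjusted p below 0.05, 30 rose in WT and 32 in Cfb-/- mice, against 15.6% and 13.3% of all genes. The study applied these criteria to p-values from DESeq2. Here and below they were applied to limma p-values and log2(FPKM + 0.1) differences, so the counts are not the study's own. The 49 genes had a median log2 difference of 1.35 in WT and 1.53 in Cfb-/- mice, against 0.29 and 0.22 for all genes. Among the 33 genes with at least 3 control mice at the required level, 25 rose in WT and 26 in Cfb-/- mice. By class in WT mice, 14 of 20 CC ligands, 9 of 11 CXC ligands, Cx3cl1, 8 of 14 receptors and 2 of 3 atypical receptors rose. Among Cfb-/- mice these numbers were 14 of 20, 10 of 11, 1 of 1, 9 of 14 and 1 of 3. The lists shared 29 genes, which is 85.3% of the WT list and 82.9% of the Cfb-/- list, and the diabetic groups were compared with separate control groups. The shared part over all tested genes was not computed, so this overlap is not read as particular to the chemokine genes. Every diabetic mouse lay above every control mouse in 33 of 49 genes in each genotype, where 35.5% and 33.6% of all genes did so. This count and those by class include the 16 genes that passed the filter through the diabetic mice. Their selection favours such a separation, so it is no support of its own for them. The values are relative to the whole library, and median-ratio or quantile scaling moved the all-gene median to between -0.05 and 0.03, with 30 or 25 of the 34 genes still called as higher in WT and 31 or 24 of the 35 in Cfb-/- mice. Under these scalings Ccl25 fell in WT mice, by 0.68 and 0.92 on the log2 scale, and Ccl27a fell by 0.96 with quantile scaling (limma adjusted p = 0.0131, 0.00455 and 0.0371). As deposited, rises made up 78.4% (WT) and 81.0% (Cfb-/-) of all calls, which became 50.6% and 57.2% with median-ratio factors, or 44.2% and 49.1% with quantile normalization. In whole tissue, fewer cells of a type and less RNA per cell cannot be told apart, and the same holds for more cells and more RNA per cell.

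Values per mouse are given below in the order of the mouse numbers, and log2 differences are diabetic minus control on the log2(FPKM + 0.1) scale with their SE, which understates the change of genes near 0.1 FPKM. The number of mice per group is as given above.

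The ligands of Ccr2, the receptor through which monocytes leave the blood, were among the genes with the largest rises. Ccl2 encodes the monocyte chemoattractant MCP-1 and stood at 0.827, 1.42 and 1.598 FPKM in WT controls, 11.3, 7.12, 7.99 and 7.78 FPKM in WT diabetic, 0.927, 1.78 and 0.595 FPKM in Cfb-/- controls and 17.5, 16.8, 6.44 and 9.89 FPKM in Cfb-/- diabetic mice. The lowest diabetic value, 6.44 FPKM, was well above the highest control value of 1.78 FPKM. Ccl2 rose by 2.67 ± 0.37 in WT (limma adjusted p = 8.29e-05) and 3.42 ± 0.37 in Cfb-/- mice (limma adjusted p = 1.59e-05). Ccl12, a rodent gene close to Ccl2, was at 0.529, 0.5198 and 0.722 FPKM in WT controls and 9.47, 15.2, 5.87 and 7.297 FPKM in WT diabetic mice. In Cfb-/- mice it was at 0.267, 0.5902 and 1.72 FPKM in controls and 9.99, 17.7, 5.11 and 6.19 FPKM in diabetic mice. The groups did not overlap in either genotype, and Ccl12 rose by 3.71 ± 0.49 in WT and 3.50 ± 0.49 in Cfb-/- mice (limma adjusted p = 6.46e-05 and 0.000109). Ccl7, which encodes MCP-3, was lower in level, at 0 to 0.4199 FPKM over the 6 controls and 1.398 to 4.47 FPKM over the 8 diabetic mice. It rose by 3.49 ± 0.49 in WT and 3.92 ± 0.49 in Cfb-/- mice (limma adjusted p = 9.08e-05 and 4.36e-05). Ccr2 itself was at 1.69, 1.73 and 2.94 FPKM in WT controls and 6.61, 3.64, 4.52 and 7.79 FPKM in WT diabetic mice, and at 1.36, 1.399 and 1.803 and 7.55, 6.74, 4.46 and 4.43 FPKM in the matching Cfb-/- groups. The groups did not overlap, although WT control 3 at 2.94 FPKM came near WT diabetic 2 at 3.64 FPKM. Ccr2 rose by 1.35 ± 0.28 in WT and 1.83 ± 0.28 in Cfb-/- mice (limma adjusted p = 0.00146 and 0.000181). The receptor thus rose with all 3 of its ligands in both genotypes. Ccl2, Ccl7, Ccl11, Ccl12, Ccl8 and Ccl1 lie within 144.2 kb of chromosome 11 (GRCm38.p6, 82035577 to 82179812), and 5 of these 6 genes rose in WT and 4 in Cfb-/- mice. Of all tested genes, 36.2% rose in WT and 27.4% in Cfb-/- mice.

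Ccl8 had the largest log2 difference of the CC ligands in WT mice. It is a ligand of Ccr8 in the mouse. WT controls had 0.413, 0.669 and 0 FPKM and WT diabetic mice 27.3, 17.8, 15.7 and 15.1 FPKM. Cfb-/- controls had 0.973, 0.365 and 2.58 FPKM and Cfb-/- diabetic mice 30.4, 17.9, 7.34 and 17.6 FPKM. No diabetic mouse overlapped a control mouse, and WT control 3 was listed at 0. The rise was 5.76 ± 0.66 in WT and 3.89 ± 0.66 in Cfb-/- mice (limma adjusted p = 2.36e-05 and 0.000472). Ccl1, the other Ccr8 ligand, was listed at 0 in all WT controls and in WT diabetic 3, and at 0 to 0.332 FPKM over the WT diabetic group, so no fold is given. It did not pass the test in WT (limma adjusted p = 0.0783) or in Cfb-/- mice (log2 difference 1.14 ± 0.61, limma adjusted p = 0.167). Ccl1 passed in WT without WT diabetic 3 and in Cfb-/- mice without Cfb-/- diabetic 3 (limma adjusted p = 0.0229 and 0.0257). Ccr8 itself lay at 0 to 0.222 FPKM over the 14 mice, with log2 differences of 0.34 ± 0.41 and 0.60 ± 0.41 (limma adjusted p = 0.517 and 0.281). Of the 3 genes of this axis only Ccl8 passed the test with all mice in the fit, in both genotypes.

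Ccr1, a receptor of monocytes, macrophages and neutrophils, rose with most of its ligands. It had the largest log2 difference of the receptors in WT mice, and its values were 0.0765, 0.0139 and 0.157 FPKM in WT controls and 0.782, 1.06, 0.438 and 0.7501 FPKM in WT diabetic mice. In the Cfb-/- groups Ccr1 was at 0.127, 0.134 and 0.0618 FPKM in controls and 0.826, 0.549, 0.322 and 0.45 FPKM in diabetic mice. The groups did not overlap, and the rise was 2.26 ± 0.33 in WT and 1.58 ± 0.33 in Cfb-/- mice (limma adjusted p = 0.000138 and 0.00221). Ccl3, which encodes MIP-1 alpha, was at 0.325, 0.318 and 0.444 FPKM in WT controls, 1.56, 1.34, 1.25 and 0.889 FPKM in WT diabetic, 0.2499, 0.0729 and 0.237 FPKM in Cfb-/- controls and 0.566, 1.06, 0.667 and 0.547 FPKM in Cfb-/- diabetic mice. It rose by 1.54 ± 0.28 and 1.53 ± 0.28 in the 2 genotypes (limma adjusted p = 0.00067 and 0.000874). Ccl4, which encodes MIP-1 beta, rose by 1.12 ± 0.23 and 1.58 ± 0.23 (limma adjusted p = 0.00148 and 0.000139), from 0.222 to 0.756 FPKM in controls to 1.24 to 1.91 FPKM in diabetic mice. Ccl3 and Ccl4 overlap in the annotation, so the reads of the 2 genes may not be fully apart.

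Ccl5, which encodes the T cell product RANTES, was at 6.27, 11.2 and 5.12 FPKM in WT controls and 11.5, 8.45, 16.4 and 19.8 FPKM in WT diabetic mice, and WT control 2 at 11.2 FPKM lay above WT diabetic 2 at 8.45 FPKM. The difference of 0.90 ± 0.36 did not pass in WT mice (limma adjusted p = 0.054), and without WT diabetic 2 or WT control 2 it did. Among Cfb-/- mice Ccl5 was at 3.67, 2.68 and 3.21 FPKM in controls and 12.8, 22.2, 7.15 and 10.1 FPKM in diabetic mice, and it rose by 1.89 ± 0.36 (limma adjusted p = 0.00107). Ccl6 and Ccl9, myeloid ligands of Ccr1, rose by 1.72 ± 0.21 and 1.98 ± 0.29 in WT mice (limma adjusted p = 3.28e-05 and 0.00012). In Cfb-/- mice they rose by 2.12 ± 0.21 and 2.68 ± 0.29 (limma adjusted p = 8.35e-06 and 1.55e-05). Ccl6 stood at 1.63 to 2.72 FPKM in controls and 5.85 to 10.6 FPKM in diabetic mice, and Ccl9 at 0.224 to 0.786 and 2.13 to 5.103 FPKM. Ccl5, Ccl9, Ccl6, Ccl3 and Ccl4 lie within 138.9 kb of chromosome 11 (83525778 to 83664683), and 4 of the 5 rose in WT and all 5 in Cfb-/- mice, where 36.2% and 27.4% of all tested genes rose. Ccr1l1, a Ccr1-like receptor gene without a known ligand, was listed at 0 in all Cfb-/- controls and at 0.0642, 0.205, 0.138 and 0.07304 FPKM in Cfb-/- diabetic mice (limma adjusted p = 0.0136), and its WT log2 difference was 0.23 ± 0.31 (limma adjusted p = 0.555).

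**Figure D2:**
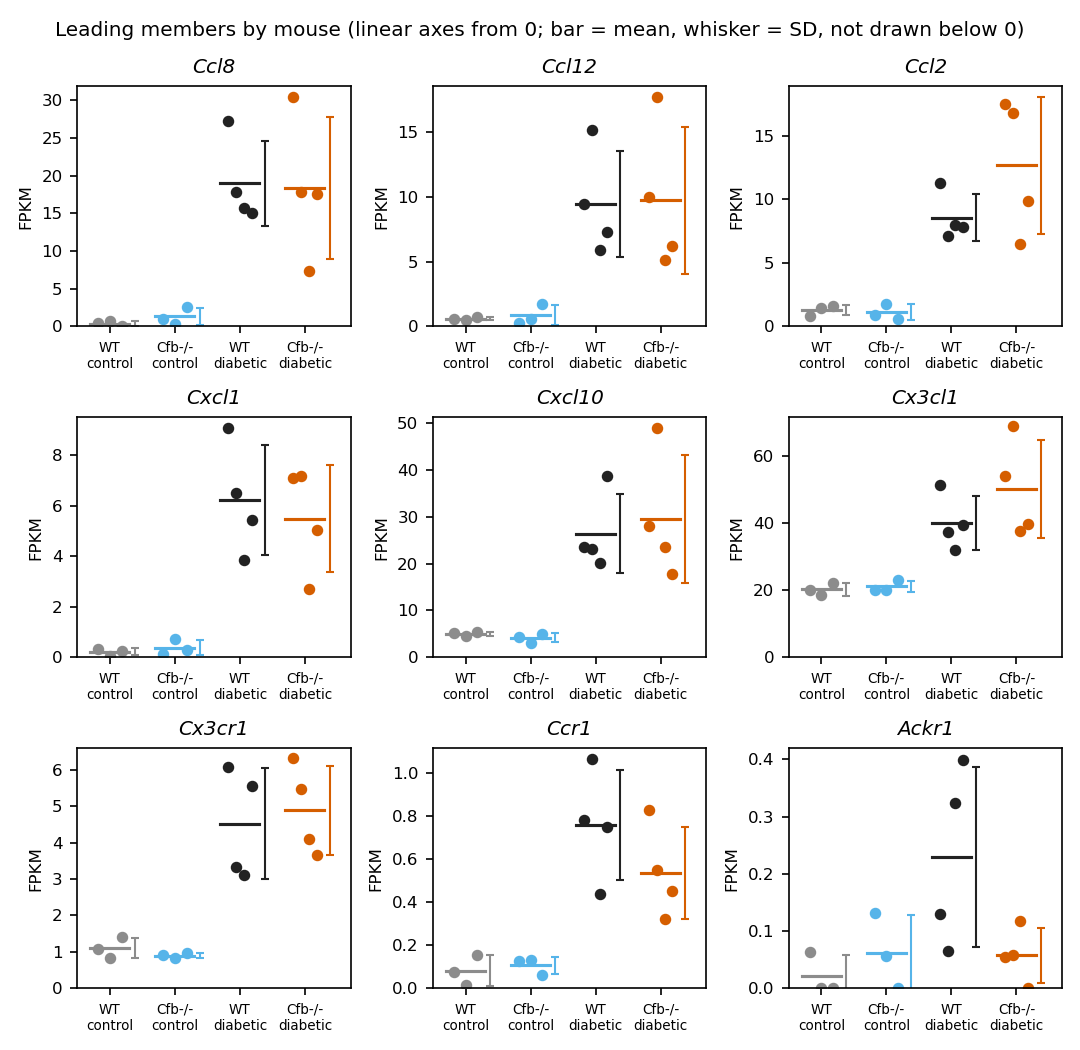
Each panel plots 1 gene in FPKM on a linear axis from 0, with 1 point per mouse, a bar at the group mean and a whisker of 1 SD, for 3 WT control, 3 Cfb-/- control, 4 WT diabetic and 4 Cfb-/- diabetic mice. In 8 panels all diabetic points lie above all control points, and in the Ackr1 panel the Cfb-/- diabetic points lie among the controls.

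Of the 4 CXC ligands of the neutrophil receptor Cxcr2, 3 rose in both genotypes, where 36.2% and 27.4% of all tested genes rose, and the receptor stayed near 0. Cxcl2, Cxcl3 and Cxcl5 passed the filter through the diabetic mice, which favours a rise, so their calls are no support of their own. Cxcl1 had 5 control mice at the required level. Cxcl1, with the largest log2 difference of the CXC ligands, was at 0.342, 0.0642 and 0.238 FPKM in WT controls and 9.06, 6.51, 3.87 and 5.45 FPKM in WT diabetic mice. In the Cfb-/- groups Cxcl1 was at 0.142, 0.713 and 0.275 FPKM in controls and 7.08, 7.17, 2.7 and 5.03 FPKM in diabetic mice. The groups did not overlap, and the rise was 4.38 ± 0.45 in WT and 3.64 ± 0.45 in Cfb-/- mice (limma adjusted p = 1.09e-05 and 4.31e-05). Cxcl2 was lower in level, at 0 to 0.104 FPKM in controls and 0.442 to 0.898 FPKM in diabetic mice. It rose by 2.29 ± 0.28 and 2.78 ± 0.28 (limma adjusted p = 3.25e-05 and 8.55e-06). Cxcl5, an epithelial ligand, was listed at 0 in all WT controls and was at 0.7698, 0.428, 0.3102 and 0.9801 FPKM in WT diabetic mice (limma adjusted p = 0.000187). Among Cfb-/- mice Cxcl5 was at 0.0394, 0.06496 and 0.0389 FPKM in controls and 1.31, 0.483, 0.221 and 0.813 FPKM in diabetic mice, a rise of 2.25 ± 0.42 (limma adjusted p = 0.000966). Cxcl3 was listed at 0 in all 6 controls, and its values were 0.0629, 0, 0 and 0.111 FPKM in WT diabetic and 0.214, 0.0568, 0.0574 and 0.302 FPKM in Cfb-/- diabetic mice. It passed the test in Cfb-/- mice (limma adjusted p = 0.0139) and not in WT mice (limma adjusted p = 0.311). Cxcl5, Cxcl3, Cxcl15, Cxcl1 and Cxcl2 lie within 146.6 kb of chromosome 5 (90759298 to 90905938), and the overlapping promoter matches shown above are those of the 3 neighbours Cxcl1, Cxcl2 and Cxcl3. Cxcr2 had 0 to 0.114 FPKM over the 14 mice and was not tested, and Cxcr1 was listed at 0 throughout. Of the 7 neutrophil markers, Ly6g, Mpo and Ngp did not pass the filter, 1 of the other 4 rose in WT mice, and the markers summed to 1.45 to 6.31 FPKM in WT diabetic and 2.08 to 4.54 FPKM in WT control mice.

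The interferon-induced ligands of Cxcr3, a receptor of effector T cells, rose in both genotypes. Cxcl10 was the second most abundant ligand of diabetic kidneys. Its values were 5.25, 4.45 and 5.34 FPKM in WT controls, 23.6, 23.1, 20.1 and 38.8 FPKM in WT diabetic, 4.27, 3.15 and 5.08 FPKM in Cfb-/- controls and 28.04, 49.01, 23.5 and 17.8 FPKM in Cfb-/- diabetic mice. The lowest diabetic value was 17.8 FPKM and the highest control value 5.34 FPKM. Cxcl10 rose by 2.33 ± 0.29 and 2.72 ± 0.29 (limma adjusted p = 3.86e-05 and 1.46e-05). Cxcl9 was at 0.991, 1.11 and 1.18 FPKM in WT controls and 3.57, 1.61, 2.69 and 3.16 FPKM in WT diabetic mice, and at 1.14, 0.444 and 1.21 and 3.42, 5.04, 1.3 and 3.14 FPKM in the Cfb-/- groups. It rose by 1.21 ± 0.40 in WT and 1.65 ± 0.40 in Cfb-/- mice (limma adjusted p = 0.0243 and 0.00553). The WT call was lost without WT diabetic 1 or 4 or WT control 1 or 2. Cxcr3 was at 0.831, 1.17 and 0.971 FPKM in WT controls and 2.04, 0.749, 2.38 and 3.12 FPKM in WT diabetic mice, where WT diabetic 2 at 0.749 FPKM lay below all WT controls. The difference of 0.85 ± 0.38 in WT did not pass (limma adjusted p = 0.0772), and it passed without WT diabetic 2. In Cfb-/- mice Cxcr3 was at 0.4704, 0.553 and 0.842 FPKM in controls and 2.38, 2.75, 1.28 and 1.65 FPKM in diabetic mice, a rise of 1.53 ± 0.38 (limma adjusted p = 0.0063). Cxcl9 and Cxcl10 lie within 27.6 kb of chromosome 5 (92321331 to 92348889).

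Ccl17 and Ccl22, dendritic cell and macrophage ligands of the regulatory and type 2 T cell receptor Ccr4, rose from low levels. Ccl22 was at 0.0547 to 0.296 FPKM in controls and 0.526 to 1.73 FPKM in diabetic mice, and rose by 1.87 ± 0.36 and 2.17 ± 0.36 (limma adjusted p = 0.00102 and 0.000401). Ccl17 was at 0 to 0.0377 FPKM in controls and 0.0875 to 0.277 FPKM in diabetic mice, and rose by 1.35 ± 0.24 and 1.12 ± 0.24 (limma adjusted p = 0.000596 and 0.00262). Ccr4 stayed at or below 0.161 FPKM, with log2 differences of 0.66 ± 0.26 and 0.62 ± 0.26 (limma adjusted p = 0.0528 and 0.0834). The difference in Ccr4 passed in WT without WT diabetic 2. Within each genotype every diabetic mouse lay above every control mouse in Ccr4, as in 35.5% (WT) and 33.6% (Cfb-/-) of all genes. The nearest WT values were 0.0378 FPKM (diabetic) and 0.0364 FPKM (control), and Ccr4 passed the filter through the diabetic mice. Ccl20, the ligand of Ccr6 that draws dendritic cells and T helper 17 cells, was listed at 0 in all WT controls and was at 0.883, 0.783, 0.625 and 1.29 FPKM in WT diabetic mice (limma adjusted p = 0.000312). In the Cfb-/- groups it was at 0, 0.344 and 0.082 FPKM in controls and 3.58, 1.92, 0.463 and 1.53 FPKM in diabetic mice, and it rose by 3.01 ± 0.54 (limma adjusted p = 0.000685). All 8 diabetic mice had 0.463 FPKM or more of Ccl20. Ccr6 was at 0.0259, 0 and 0 FPKM in WT controls and 0.105, 0.04, 0.146 and 0.0816 FPKM in WT diabetic mice. It rose by 0.81 ± 0.29 in WT (limma adjusted p = 0.035), a call lost without any of 5 single mice, and its difference in Cfb-/- mice was 0.39 ± 0.29 (limma adjusted p = 0.322).

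The lymphoid chemokines showed rises with a wide spread between mice. Ccl19 and Ccl21a guide T cells and dendritic cells through Ccr7. Ccl19 was at 1.42, 1.63 and 2.38 FPKM in WT controls and 5.14, 2.49, 7.12 and 5.402 FPKM in WT diabetic mice, and WT diabetic 2 was close to WT control 3. Ccl19 rose by 1.37 ± 0.32 in WT and 0.95 ± 0.32 in Cfb-/- mice (limma adjusted p = 0.00373 and 0.0342), the second of which was lost without any of 6 single mice. Ccl21a was at 3.43 to 5.99 FPKM in controls and 4.19 to 10.4 FPKM in diabetic mice. Its rise of 0.71 ± 0.28 in WT and 0.78 ± 0.28 in Cfb-/- mice was near the threshold (limma adjusted p = 0.0492 and 0.0406), and each call was lost without any of 5 single mice. Ccl21a has a near-identical copy, Ccl21b, that was listed at 0 in all mice, so reads of the copies may be assigned to either. Ccr7 was at 0.0921, 0.414 and 0.589 FPKM in WT controls and 0.763, 0.485, 1.32 and 1.59 FPKM in WT diabetic mice, which overlapped, and at 0.252, 0.112 and 0.175 and 1.07, 1.39, 0.434 and 0.741 FPKM in the Cfb-/- groups, which did not. Ccr7 rose by 1.36 ± 0.46 and 1.78 ± 0.46 (limma adjusted p = 0.0275 and 0.00859), and the WT call was lost without WT diabetic 3 or 4 or WT control 1.

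Cxcl13, which draws B cells into follicles, was at 0.337, 0.192 and 0.146 FPKM in WT controls, 2.36, 0.884, 3.22 and 2.69 FPKM in WT diabetic, 0.217, 0.184 and 0.676 FPKM in Cfb-/- controls and 2.66, 1.75, 0.404 and 3.34 FPKM in Cfb-/- diabetic mice. Cfb-/- diabetic 3 at 0.404 FPKM lay below Cfb-/- control 3 at 0.676 FPKM. Cxcl13 rose by 2.79 ± 0.59 in WT and 2.07 ± 0.59 in Cfb-/- mice (limma adjusted p = 0.00184 and 0.014), and the second call was lost without Cfb-/- control 1 or 2. Its receptor Cxcr5, the follicular receptor of B cells and helper T cells, was at 0, 0.0195 and 0.126 FPKM in WT controls and 0.309, 0.177, 0.375 and 0.389 FPKM in WT diabetic mice, a rise of 1.53 ± 0.42 (limma adjusted p = 0.0095). Among Cfb-/- mice Cxcr5 was at 0.118, 0.0174 and 0.09302 FPKM in controls and 0.133, 0.231, 0.0866 and 0.604 FPKM in diabetic mice, a difference of 0.90 ± 0.42 that did not pass (limma adjusted p = 0.117) and passed without Cfb-/- diabetic 3.

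The transmembrane ligands Cx3cl1 and Cxcl16 combined high levels with rises of 0.95 to 1.43 on the log2 scale. Cx3cl1, an adhesive and soluble ligand of endothelium and epithelium, was at 20.2, 18.5 and 22.3 FPKM in WT controls, 51.3, 37.5, 32.1 and 39.6 FPKM in WT diabetic, 20.1, 20.2 and 23.1 FPKM in Cfb-/- controls and 54.2, 69.2, 37.7 and 39.9 FPKM in Cfb-/- diabetic mice. The lowest diabetic value, 32.1 FPKM, was above the highest control value, 23.1 FPKM. It rose by 0.96 ± 0.19 and 1.20 ± 0.19 (limma adjusted p = 0.00124 and 0.000277). Its receptor Cx3cr1, carried by resident macrophages and patrolling monocytes, was at 1.08, 0.838 and 1.403 FPKM in WT controls and 6.08, 3.33, 3.11 and 5.55 FPKM in WT diabetic mice, and at 0.907, 0.827 and 0.963 and 6.32, 5.46, 4.101 and 3.67 FPKM in the Cfb-/- groups. It rose by 1.90 ± 0.26 and 2.29 ± 0.26 (limma adjusted p = 6.96e-05 and 2.07e-05). The log2 difference of the receptor exceeded that of the ligand in both genotypes, and this was not tested. Cx3cl1, Ccl22 and Ccl17 are neighbours on chromosome 8 (94745684 to 94812038), and all 3 rose in both genotypes, where 36.2% and 27.4% of all tested genes rose. Cxcl16 was at 10.2, 10.9 and 12.5 FPKM in WT controls, 22.7, 21.4, 17.4 and 26.3 FPKM in WT diabetic, 9.28, 8.38 and 9.501 FPKM in Cfb-/- controls and 28.2, 30.5, 20.1 and 20.7 FPKM in Cfb-/- diabetic mice. It rose by 0.95 ± 0.16 and 1.43 ± 0.16 (limma adjusted p = 0.000378 and 2.33e-05), without overlap in either genotype. Cxcr6, its receptor on T cells, was at 0.362 to 1.13 FPKM in controls and 0.569 to 2.22 FPKM in diabetic mice, with differences of 0.49 ± 0.39 and 0.96 ± 0.39 that did not pass (limma adjusted p = 0.309 and 0.0701). The second passed without Cfb-/- diabetic 3 or without Cfb-/- control 1.

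In the Cxcl12 axis the signalling receptor rose in both genotypes, and the ligand passed the test in WT mice. Cxcl12, which retains leukocytes and progenitors in tissue, was at 15.96, 10.96 and 14.6 FPKM in WT controls, 17.97, 24.6, 24.9 and 18.5 FPKM in WT diabetic, 14.5, 14.04 and 26.8 FPKM in Cfb-/- controls and 17.04, 22.6, 17.7 and 23.6 FPKM in Cfb-/- diabetic mice. Cfb-/- control 3, at 26.8 FPKM, had the highest value of all mice. Cxcl12 rose by 0.63 ± 0.22 in WT (limma adjusted p = 0.0297), a call lost without WT diabetic 2 or 3 or WT control 2. In Cfb-/- mice the difference was 0.18 ± 0.22 (limma adjusted p = 0.547), and the difference between genotypes did not pass (interaction -0.45 ± 0.31, limma adjusted p = 0.779). Cxcr4 was at 1.26, 1.23 and 0.995 FPKM in WT controls, 4.63, 2.58, 4.81 and 4.64 FPKM in WT diabetic, 1.12, 1.65 and 1.58 FPKM in Cfb-/- controls and 5.305, 5.97, 4.41 and 4.13 FPKM in Cfb-/- diabetic mice. It rose by 1.72 ± 0.22 and 1.71 ± 0.22 (limma adjusted p = 4.71e-05 and 5.4e-05) without overlap. Ackr3, the scavenging receptor of Cxcl12, was the most abundant receptor of either kind, at 29.6 ± 3.896 FPKM in WT controls, 28.5 ± 4.12 FPKM in WT diabetic, 31.8 ± 3.92 FPKM in Cfb-/- controls and 31.4 ± 3.06 FPKM in Cfb-/- diabetic mice (mean ± SD). Its diabetic minus control differences were -0.06 (95% interval -0.34 to 0.22) in WT and -0.01 (95% interval -0.29 to 0.27) in Cfb-/- mice, which did not pass (limma adjusted p = 0.74 and 0.953).

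The other atypical receptors were near the limit of detection. Ackr1, the Duffy antigen receptor of venules, had the largest difference of its class in WT mice, at 0.06401, 0 and 0 FPKM in WT controls and 0.129, 0.06597, 0.324 and 0.399 FPKM in WT diabetic mice. In the Cfb-/- groups it was at 0.131, 0.0557 and 0 FPKM in controls and 0.0544, 0.0581, 0.118 and 0 FPKM in diabetic mice, which overlapped. Ackr1 rose by 1.35 ± 0.41 in WT (limma adjusted p = 0.0157), a call lost without WT control 2 or 3 (1.23, limma adjusted p = 0.0541 and 0.0667), and its difference in Cfb-/- mice was -0.01 ± 0.41 (limma adjusted p = 0.986). Ackr2, which degrades inflammatory CC chemokines, was at 0.0665 to 0.162 FPKM in controls and 0.154 to 0.489 FPKM in diabetic mice. It rose by 1.32 ± 0.26 and 1.01 ± 0.26 (limma adjusted p = 0.00122 and 0.00811). Ackr4, a scavenger of Ccr7 ligands, was at 0.0801 FPKM or less in all mice and was not tested.

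Of the remaining ligands, Ccl11, the eosinophil ligand eotaxin, was at 0, 0.0844 and 0.1201 FPKM in WT controls, 0.669, 0.745, 0.909 and 0.747 FPKM in WT diabetic, 0.192, 0.122 and 0.184 FPKM in Cfb-/- controls and 0.444, 0.7302, 0.1301 and 0.505 FPKM in Cfb-/- diabetic mice. It rose by 2.44 ± 0.37 in WT (limma adjusted p = 0.000163), and its difference in Cfb-/- mice was 0.92 ± 0.37 (limma adjusted p = 0.0658), which passed without Cfb-/- diabetic 3. Cfb-/- diabetic 3, at 0.130 FPKM, was the one mouse of that group within the range of its controls. Ccl24, a second eotaxin, was at or below 0.131 FPKM, with differences of 0.47 ± 0.32 and 0.50 ± 0.32 (limma adjusted p = 0.235 and 0.251), and their receptor Ccr3 was at or below 0.119 FPKM and was not tested. Cxcl17, a mucosal ligand, was at 0 to 0.217 FPKM in controls and 0.726 to 3.12 FPKM in diabetic mice, and rose by 3.18 ± 0.48 and 2.64 ± 0.48 (limma adjusted p = 0.000166 and 0.000759). Cxcl14, a homeostatic epithelial ligand, was at 6.84 to 7.51 FPKM in WT controls and 6.72 to 9.62 FPKM in WT diabetic mice, a difference of 0.15 ± 0.21 (limma adjusted p = 0.58). Among Cfb-/- mice it was at 4.86, 4.76 and 8.94 FPKM in controls and 9.96, 12.4, 7.29 and 9.25 FPKM in diabetic mice, which overlapped, and it rose by 0.68 ± 0.21 (limma adjusted p = 0.0229), a call lost without any of 4 single mice.

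Ccl25, Ccl27a and Ccl28, ligands of epithelial surfaces, did not pass the test in either genotype with all mice in the fit. Ccl25, the gut ligand of Ccr9, was at 2.27 to 3.15 FPKM in WT controls and 1.73 to 2.43 FPKM in WT diabetic mice, with a difference of -0.41 ± 0.19 (limma adjusted p = 0.0808) that passed as a fall without WT control 1. Its difference in Cfb-/- mice was -0.12 ± 0.19 (limma adjusted p = 0.652). Ccl27a and Ccl28, ligands of Ccr10 in skin and mucosa, differed by -0.32 ± 0.33 and 0.34 ± 0.34 in WT mice (limma adjusted p = 0.439 and 0.433). In Cfb-/- mice they differed by -0.02 ± 0.33 and -0.45 ± 0.34 (limma adjusted p = 0.968 and 0.338). The WT difference in Ccl28 passed as a rise without WT control 1 (0.87, limma adjusted p = 0.016). That mouse stood at 4.20 FPKM, against 1.61 and 1.11 FPKM in WT controls 2 and 3. Ccl27a has a near-identical copy, Ccl27b, and overlaps Il11ra1, so its value is uncertain. Ccr10 was at 0, 0.04001 and 0 FPKM in Cfb-/- controls and 0.195, 0.207, 0.0397 and 0.167 FPKM in Cfb-/- diabetic mice, and it rose by 1.11 ± 0.39 (limma adjusted p = 0.041), a call lost without any of 6 single mice. In WT mice the difference in Ccr10 was 0.29 ± 0.39 (limma adjusted p = 0.555).

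**Figure D3:**
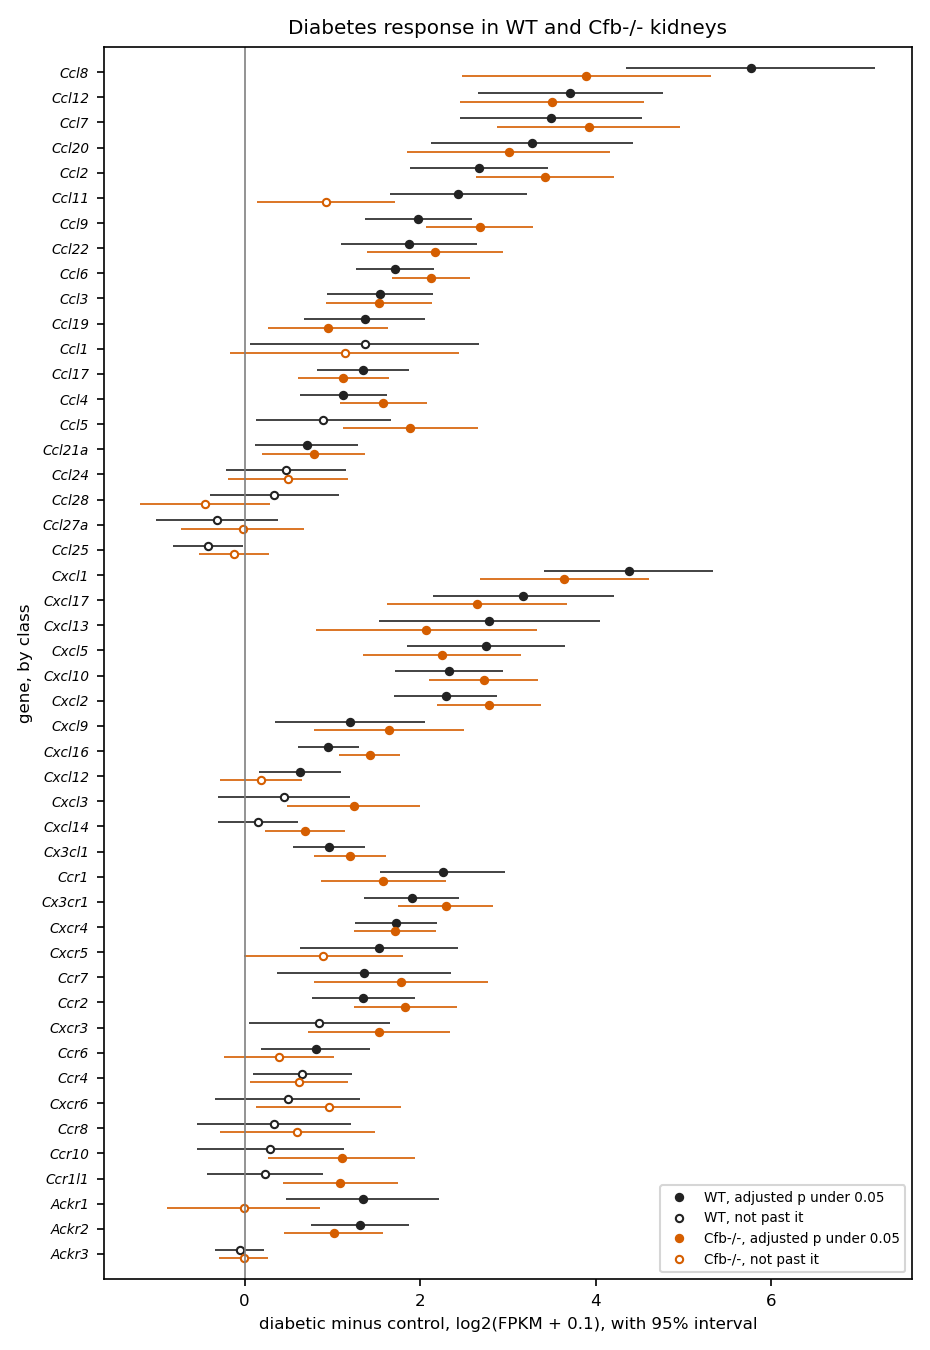
Points give the diabetic minus control difference on the log2(FPKM + 0.1) scale and lines its 95% interval for 48 of the 49 genes, black for WT and orange for Cfb-/- mice, with filled points where the limma adjusted p is under 0.05. The largest WT difference is that of Ccl8 at 5.76, followed by Cxcl1 at 4.38, and filled points lie to the right of 0 in all cases.

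Of 34 ligand and receptor pairs listed, 26 had both partners among the tested genes. Both partners rose in 14 of the 26 pairs in WT and in 15 in Cfb-/- mice, 11 of them in both, and in 0 pairs did a partner fall. Of all tested genes taken singly, 36.2% rose and 9.97% fell in WT, and 27.4% rose and 6.4% fell in Cfb-/- mice. No share for other pairs of genes was computed. Some partners, Ccl17, Ccl20, Ccr6 and Cxcr5 among them, passed the filter through the diabetic mice. Among the 11 were Ccl2, Ccl7 and Ccl12 with Ccr2, Ccl3, Ccl6 and Ccl9 with Ccr1, Ccl19 and Ccl21a with Ccr7, and Cx3cl1 with Cx3cr1. Pairs share genes, so they are not independent, and pairing is by textbook binding and not by any measurement here. In both genotypes the ligand passed the test and its receptor did not in Ccl8 with Ccr8, Ccl17 and Ccl22 with Ccr4, and Cxcl16 with Cxcr6. These receptors are not shown to be unaltered. Cxcl12 with Cxcr4 and Ccl5 with Ccr1 were among the cases where the receptor passed the test in both genotypes and the ligand in 1. By level, the ligand exceeded its receptor in every WT diabetic mouse in 19 of the 26 pairs and in every Cfb-/- diabetic mouse in 20. In the control groups these numbers were 15 and 16. The receptor exceeded the ligand in every mouse of a group in 3 to 5 pairs. The 8 pairs left out were 4 with Cxcr2, 2 with Ccr3, Ccl25 with Ccr9 and Cxcl11 with Cxcr3, and Cxcl11 was not analysed here.

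**Figure D4:**
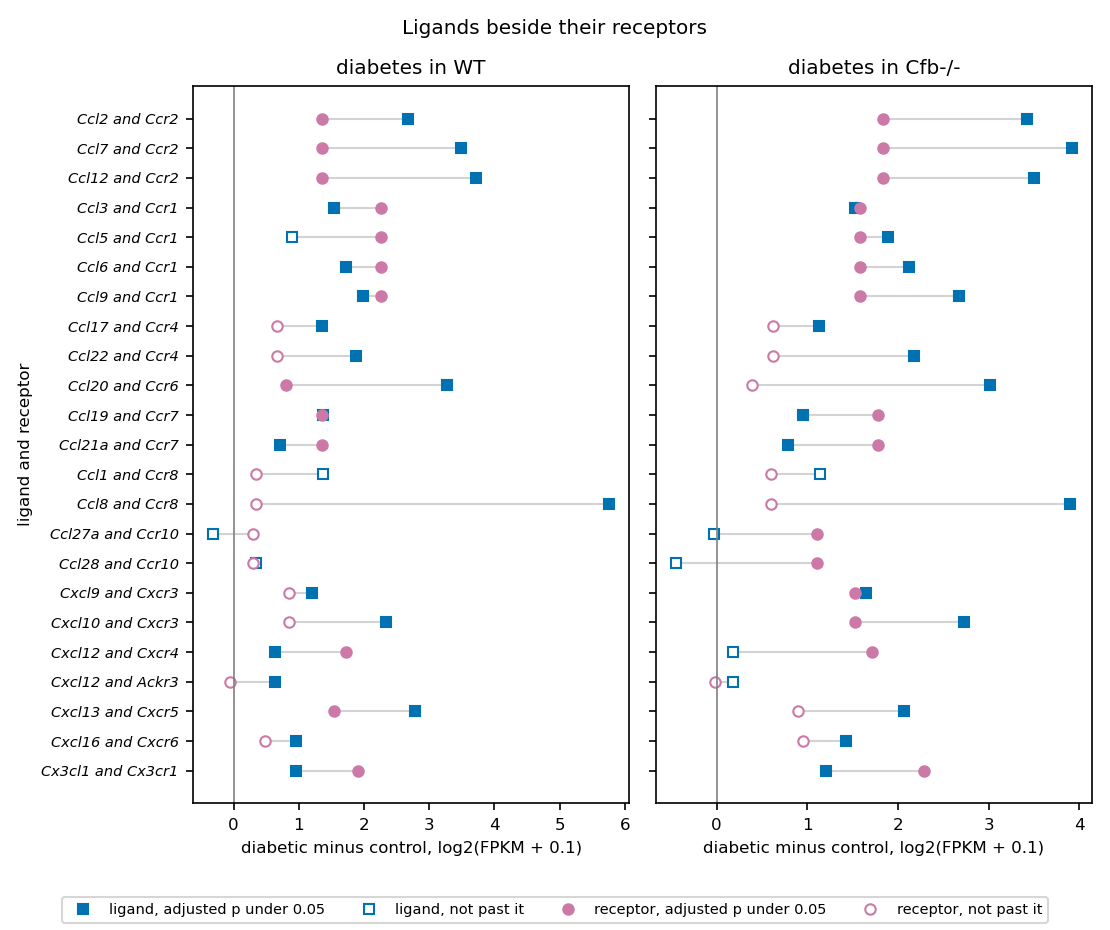
Squares give the ligand's and circles the receptor's diabetic minus control difference on the log2(FPKM + 0.1) scale for 23 of the 26 pairs, WT on the left and Cfb-/- on the right (the axes differ in range), filled where the limma adjusted p is under 0.05. Squares lie farther right than circles in the Ccr2, Ccr4 and Ccr6 pairs, and circles lie farther right in the Cx3cr1 pair.

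The diabetic mice differed among themselves. Cfb-/- diabetic 3 had the lowest value of its group in 34 of the 49 genes, and Cfb-/- diabetic 2 had the highest in 26. In WT diabetic mice the lowest values fell to mouse 2 and to mouse 3 in 19 genes each. These ranks were counted for the chemokine genes alone, so whether a mouse was low across its whole library is not known. Cfb-/- diabetic 3 also had the lowest summed macrophage markers of its group, 247 FPKM against 304.7 to 439.8 FPKM in the other 3 mice. Without Cfb-/- diabetic 3, Ccl1, Ccl11, Cxcr5 and Cxcr6 passed as rises in Cfb-/- mice.

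Most markers of macrophages, monocytes, dendritic cells and T cells rose with the chemokine genes, and those of B cells, NK cells and neutrophils did so in part. Their part in the results above was not tested. Of all tested genes, 36.2% rose and 9.97% fell in WT, and 27.4% rose and 6.4% fell in Cfb-/- mice. The counts here and in the next 2 paragraphs stand beside these shares. Lists of few genes can lie near them. Of each list here and below, the genes named were taken by the smallest p in WT mice, not by the size of the difference. Of 11 macrophage markers 10 rose in WT and 9 in Cfb-/- mice, with sums of 67.0 to 104.2 FPKM in controls and 247 to 439.8 FPKM in diabetic mice. Mrc1, Lyz2 and Fcgr1 had WT log2 differences of 2.55, 2.76 and 2.78. All 5 monocyte markers rose in WT and 4 in Cfb-/- mice, with Fn1 at 2.95, Plac8 at 1.58 and Itgam at 2.09. Of 9 T cell markers 8 rose in each genotype, and Cd4, Cd247 and Cd5 had WT differences of 2.29, 1.42 and 1.95. Of 7 dendritic cell markers 6 rose in WT and 7 in Cfb-/- mice, with Cd74 at 1.50, H2-Ab1 at 1.26 and Itgax at 1.42 in WT mice. Of 5 tested B cell markers 3 and 2 rose, and Ms4a1, Cd79a and Cd79b had WT differences of 1.73, 1.71 and 1.08. The 3 plasma cell markers, Jchain at 4.06, Mzb1 at 1.58 and Tnfrsf17 at 0.88, rose in WT mice and 2 of them in Cfb-/- mice. Of 5 NK cell markers 1 rose in WT (Klrk1, 0.66) and 3 in Cfb-/- mice, and Prf1 and Gzma had WT differences of 0.56 and -0.98. Of 4 tested neutrophil markers Csf3r rose in WT mice (1.29), whereas S100a8 and S100a9 had differences of -0.28 and -0.27, and in Cfb-/- mice 1 rose and 1 fell.

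Markers of kidney cells also differed. All 6 injured tubule markers rose in both genotypes, with Krt20 at 4.78, Havcr1 at 5.53 and Spp1 at 2.78 in WT mice, with sums of 233 to 303 FPKM in controls and 1182 to 2383 FPKM in diabetic mice. Of 5 proximal tubule markers 2 fell in WT and 3 in Cfb-/- mice, and Slc34a1, Slc5a2 and Lrp2 had WT differences of -1.34, -2.99 and -0.33, the last of which did not pass. Of 8 general kidney markers 2 rose (Aqp2, 1.14, and Slc12a1, 1.35) and 1 fell in WT mice. Of 5 endothelial markers 3 rose in each genotype, with Cdh5 at 1.10, Pecam1 at 0.90 and Tek at 0.49 in WT mice. The 5 lymphatic endothelium markers rose in WT and 4 in Cfb-/- mice, with Lyve1 (2.26), Pdpn (1.58) and Mmrn1 (1.46) in WT mice. The 5 fibroblast markers rose in both genotypes, with Col1a1 (2.76), Dcn (1.71) and Acta2 (1.06) in WT mice. Urothelium markers rose in 6 of 6 cases in WT and in 0 in Cfb-/- mice, with sums of 0.280 to 0.643 FPKM in WT controls, 0.690 to 46.3 FPKM in WT diabetic, 0.607 to 8.89 FPKM in Cfb-/- controls and 1.22 to 3.15 FPKM in Cfb-/- diabetic mice. Krt5, Upk1a and Upk1b had WT differences of 3.59, 3.49 and 3.88. Of 5 tested adipocyte markers 5 rose in WT (Cfd 6.39, Fabp4 1.35 and Adipoq 3.46 among them) and 1 in Cfb-/- mice. Without the 5 mice whose urothelium sum was over 5 FPKM, which leaves 1 WT diabetic and 1 Cfb-/- control mouse that are assumed to vary like the other groups, 22 chemokine genes were called in WT and 23 in Cfb-/- mice, and at the study's criteria 29 and 31.

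Genes that act beside the chemokines were taken from 4 lists. Of 23 tested genes of receptor signalling 18 rose in WT and 19 in Cfb-/- mice, with the WT difference of Dock2, the exchange factor that drives leukocyte migration, at 1.75 (limma adjusted p = 1.51e-05). Gng2, a G protein subunit, and Elmo1, the partner of Dock2, differed by 1.28 and 1.38. Of 11 tested cytokines and factors that induce chemokines 9 rose in each genotype, and Tnfaip3 and Nfkbia had WT differences of 1.48 and 0.95 (limma adjusted p = 3.35e-05 and 8.13e-05). Tnfaip3 and Nfkbia encode inhibitors of NF-kappaB that NF-kappaB itself induces. Of 12 leukocyte adhesion genes 10 rose in each genotype, with Vcam1 at 2.29, Icam1 at 1.21 and Selp at 1.62 in WT mice (limma adjusted p = 1.87e-05, 2.36e-05 and 7.29e-05). Of 11 genes of the chemokine system outside the symbol rule 5 rose in WT and 6 in Cfb-/- mice, with WT differences of 1.50 for Cd74, 1.60 for Cmklr1 and 1.32 for Rarres2, which encodes the Cmklr1 ligand chemerin. No gene of these 4 lists fell in either genotype. The lists share Itgam, Cd74 and Vcam1 with the marker lists above.

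The second question was whether deletion of Cfb altered the chemokine genes of diabetic kidneys. Of the 49 genes 0 passed an adjusted p under 0.05 (limma), and of all 14912 genes only 1, Cfb itself, passed. The study's criteria, applied to the limma fit, were met by 0 of the 49 and by 0.476% of all genes. An unadjusted p under 0.05 was found for 4, as it was for 3.004% of all genes. The median difference, Cfb-/- minus WT, was -0.03. The 5 genes with the smallest p were Ccl3 (-0.76, 95% interval -1.32 to -0.21), Ackr1 (-0.98, -1.79 to -0.17), Cxcl3 (0.80, 0.10 to 1.49), Ccl11 (-0.79, -1.51 to -0.06) and Ccr1l1 (0.59, -0.02 to 1.20), each with a limma adjusted p of 1. In 0 of the 49 genes did the diabetic groups part without overlap, where 2.75% of all genes did. For 30 of the 49 the 95% interval lay within a 2-fold difference in either direction, and these included 24 of the 40 genes called in at least 1 diabetes comparison. Among the 30, Cxcl10 and Ccr2 differed by 0.11 (-0.46 to 0.68) and 0.06 (-0.49 to 0.61). For the other 19 genes the interval reached beyond 2-fold, Ccl2 at 0.47 (-0.26 to 1.20), Ccl8 (-1.49 to 1.14) and Cxcl13 (-1.50 to 0.83) among them. The plot of the genotype differences shows these intervals gene by gene.

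**Figure D5:**
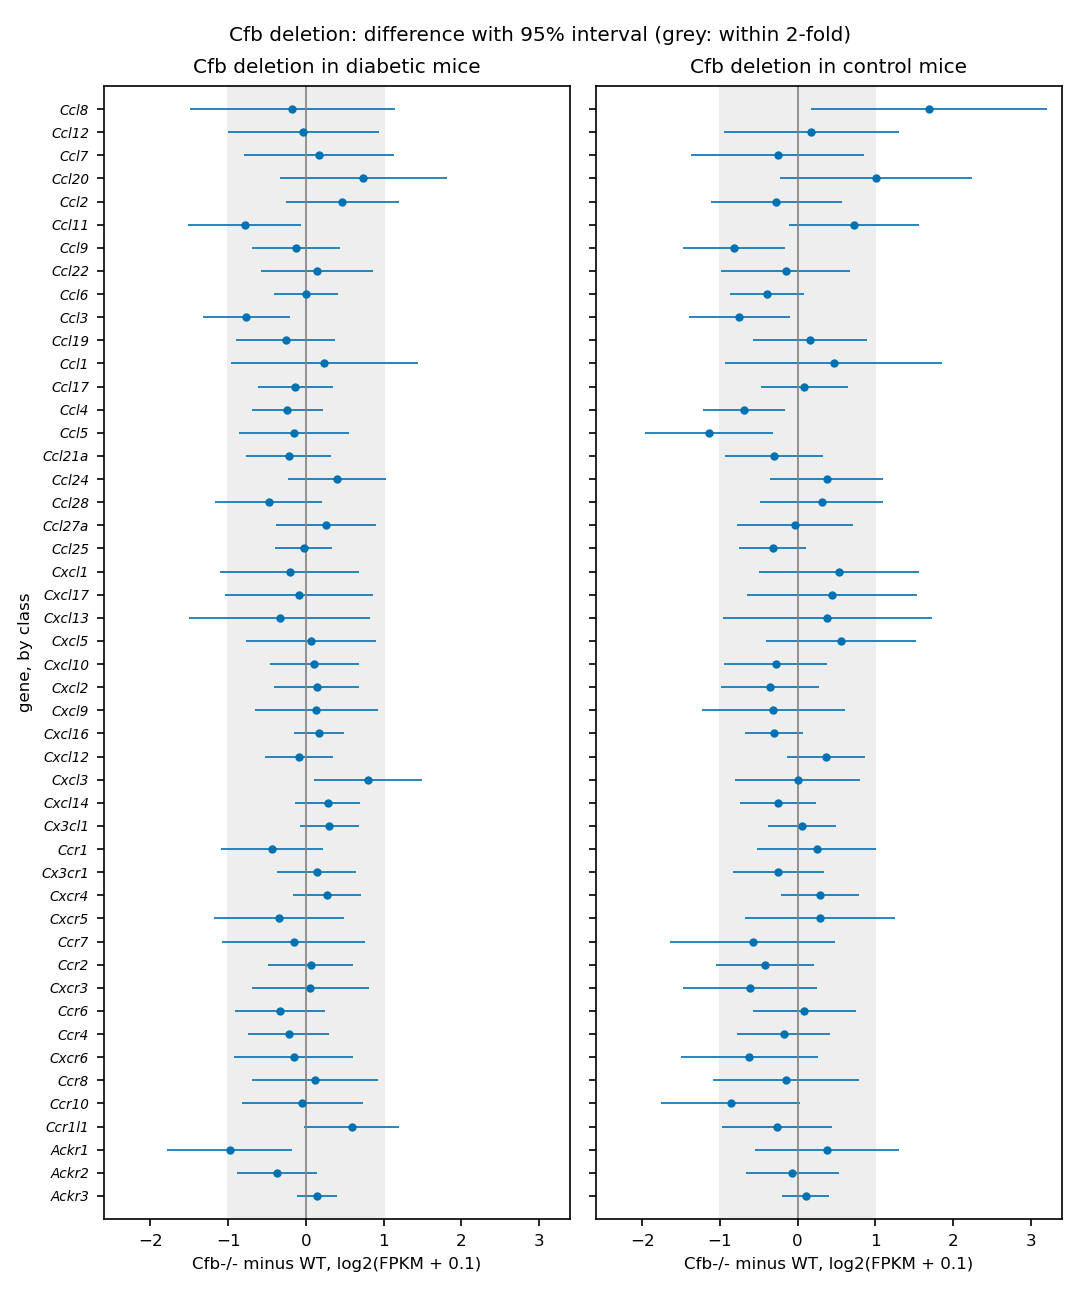
Points give the Cfb-/- minus WT difference on the log2(FPKM + 0.1) scale and lines its 95% interval for 48 of the 49 genes, in diabetic mice (4 against 4, left) and control mice (3 against 3, right), and the grey band marks differences within 2-fold. In diabetic mice 29 of the intervals drawn lie inside the band and in control mice 21.

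In control mice 0 of the 49 genes passed an adjusted p under 0.05 (smallest limma adjusted p = 0.247), and of all 14912 genes only 1, Cfb itself, passed. Of the 49, 5 had an unadjusted p under 0.05 (17.5% of all genes did), and 2 met the study's criteria, which 1.17% of all genes met. These were Ccl5, with a Cfb-/- minus WT difference of -1.15 on the log2 scale (3.67, 2.68 and 3.21 FPKM against 6.27, 11.2 and 5.12 FPKM), and Ccl8, higher by 1.69. Among the other genes with small p, Ccl4, Ccl9 and Ccl3 differed by -0.69, -0.82 and -0.75. The groups parted without overlap in 8 genes, where 13.8% of all genes did. Ccl11 and Cxcl5 lay above, and Ccl3, Ccl4, Ccl5, Ccl6, Ccl9 and Cxcl16 below in all Cfb-/- controls. Of these 6, Ccl3, Ccl4, Ccl5, Ccl6 and Ccl9 are the 5 neighbours on chromosome 11 described above, which was seen afterwards and not tested. The 8 genes were close to the share of all genes, so no effect of the deletion is read from them. With 3 mice against 3 an exact permutation test cannot go below p = 0.1. The Ccr10 difference passed without WT control 1 (-1.37, limma adjusted p = 0.0355).

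The third question was whether the response to diabetes itself differed between genotypes. The interaction, response in Cfb-/- minus response in WT mice, passed in 0 of 49 genes (smallest limma adjusted p = 0.779), as in 0 of all 14912 genes. It had an unadjusted p under 0.05 in 2 of the 49 (5.77% of all genes did). Both met the study's criteria, which 1.77% of all genes met, namely Ccl11 at -1.51 (95% interval -2.62 to -0.40) and Ackr1 at -1.36 (-2.59 to -0.13). Next came Cxcl16 at 0.47 (-0.02 to 0.96), Ccl8 at -1.87 (-3.88 to 0.14) and Ccr1l1, with Cfb-/- controls listed at 0, at 0.86 (-0.07 to 1.79). Of the 49 intervals 10 lay within 2-fold, so genes called in 1 genotype alone (Ackr1, Ccl11, Ccr6, Cxcl12 and Cxcr5 in WT, and Ccl5, Ccr10, Ccr1l1, Cxcl14, Cxcl3 and Cxcr3 in Cfb-/- mice) are not shown to differ between genotypes. An exact permutation test of a single gene (two-sided) cannot give less than p = 0.0286 with 4 mice in each group or 0.0571 with 4 and 3. By that test no diabetes comparison could pass, and in diabetic mice its p for Ccl3 was 0.0571 and for Ackr1 0.0571 (exact two-sided permutation).

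Gene models limit some values. Of the 49 genes, 18 overlap another gene in the RefSeq annotation of GRCm38.p6, and the use of strand in counting is not given in the sources used here. Besides Ccl3 and Ccl4, these were Ackr1 (Cadm3), Cxcl16 (Zmynd15), Cxcl10 (Art3), Cxcr5 (Bcl9l), Cxcr6 (Fyco1), Ccr10 (Cntnap1), Ccl27a (Il11ra1) and 9 genes that overlap unnamed or predicted loci (Ccl5, Ccl6, Ccr6, Ccl19, Ccl21a, Cxcl17, Ccl25, Cx3cl1 and Cx3cr1). Reads from such partners could not be told apart from those of the chemokine gene here.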

How the data were processed

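Kidney RNA of 14 mice was measured with stranded mRNA libraries read from both ends. The authors deposited 1 value per gene and mouse, which was read as FPKM: totals vary between mice, values carry fractions, and the smallest increment of a gene falls as its transcript grows longer (Spearman -0.707 over 1183 genes listed above 0 in few mice). The submitters' processing notes name Trimmomatic, HISAT2, Cufflinks, HTSeq, DESeq and GRCm38.p6, without roles or versions here. FPKM depends on all other transcripts of a library, and the proximal tubule gene Kap alone took up a large and unequal part of it. Depth per mouse is known only in relative terms (0.853 to 1), so counting error could not be computed. Replicates are separate mice, and 0 pairs of mice held identical values.

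The count test of the design could not be used with FPKM, so its written fallback was used, the limma trend method on log2(FPKM + 0.1), with limma 3.58.1 run under R 4.3.3. All 14 mice entered 1 fit with a mean per group and no covariates, and p-values were adjusted by Benjamini-Hochberg over the 14912 genes with at least 0.1 FPKM in 3 or more mice. Calls were made at an adjusted p under 0.05 and at the study's criteria. Single genes were also tested by exact two-sided permutation (scipy 1.17.1), and tables and plots were made with Python 3.11.15, numpy 2.4.6, pandas 2.3.3 and matplotlib 3.10.9. The fit was tested on simulated data for the WT comparison. Of 67 genes raised or lowered by 1 on the log2 scale it found 44, of 67 altered by 2 it found 63, of 66 altered by 3 it found 65, and 8 of 14712 unaltered genes were called. The simulation altered only 200 genes, with normal noise and without values listed at 0 or a shift of the library. Far more genes were called in the data, so these rates need not hold for them.

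The chemokine genes, the marker and pathway lists and the pairs were chosen with earlier results of these data known, and they support no test of their own. Named with values were the genes called in either diabetes comparison, the partners of each pair, the 5 genes with the smallest p in each genotype comparison and in the interaction, the genes next to the filter, Cfb, and the 3 genes with the smallest p in WT mice of each list. Values per mouse were required for the gene with the largest difference of each class. Alternatives were other pseudocounts, filters and scalings, a fit of only the groups compared, a block on replicate number, and each mouse left out in turn. Leaving out the mice with high urothelium markers and a filter on the mean were added after seeing the data. Some genes that this rule covers are counted but not reported here by name, and the plots leave them out. Grk2 and Grk3 were not found under these symbols. Of the 58 genes, 14 had no promoter entry, and protein sequences were not used here.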

Additional observations from a re-analysis of the deposited data

Results flagged for a closer look

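In 98 groups of 4 diabetic mice (49 genes in each genotype), 3 held a mouse whose gap to its nearest neighbour exceeded Dixon's 95% critical share of the group's range, and about 4.9 would be so by chance. Ccl24, a low eotaxin gene, was at 0.0723 FPKM in Cfb-/- diabetic 1 against 0.115 to 0.121 FPKM in the other 3 mice. Cxcl17, a mucosal ligand, was at 3.12 FPKM in Cfb-/- diabetic 1 against 0.726 to 0.821 FPKM in the others. Cxcr4, the receptor of Cxcl12, was at 2.58 FPKM in WT diabetic 2 against 4.63 to 4.81 FPKM in the others, and that mouse had the lowest value of its group in 19 of the 49 genes. Such ranks were not counted over all genes. The control groups hold 3 mice each and were not examined in this way. The differences in response between genotypes stand in the report, where 0 genes passed the interaction test.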

How the results depend on the processing

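Under the alternatives that tested them 0 of the called genes changed direction, and the counts of calls at an adjusted p under 0.05 (limma) stayed within 1.5 times of the 34 in WT and 35 in Cfb-/- mice under every setting but 1. Without the 5 mice with high urothelium markers they were 22 and 23, with fewer mice in the fit. Leaving aside those mice and the filter on the mean, 25 of 34 called genes in WT and 24 of 35 in Cfb-/- mice kept their call under every setting that tested them. The filter of FPKM of at least 1 in 3 mice left 9 and 8 of the called genes untested, and of the 25 and 27 tested under all settings 20 and 21 kept their call. Ackr2, Ccl21a and Ccr7 lost it in both genotypes under at least 1 setting. At the study's criteria, log2(FPKM + 1) gave 15 genes in WT and 18 in Cfb-/- mice, since a larger pseudocount shrinks the fold of low genes, and quantile normalization gave 19 in WT, for which the cause was not tested. For Cfb deletion in diabetic mice the study's criteria gave 1 gene with log2(FPKM + 0.01) and 2 without the mice with high urothelium markers (Ccl3 and Ccr1l1). For deletion in control mice they gave 0 with log2(FPKM + 1), 6 with log2(FPKM + 0.01), 1 with only the groups compared and 4 without the mice with high urothelium markers. For the interaction they gave 0 with log2(FPKM + 1), 0 with FPKM of at least 1 in 3 mice, 1 with the replicate block and 1 without the mice with high urothelium markers.

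Leaving out each mouse in turn gave 30 to 35 genes at an adjusted p under 0.05 in WT and 30 to 39 in Cfb-/- mice, 28 to 32 and 29 to 37 at the study's criteria, and a Cfb difference of -5.76 to -5.57 in diabetic and -5.83 to -5.29 in control mice. For deletion in diabetic mice the ranges were 0 to 0 (adjusted) and 0 to 2 (study's criteria, highest without Cfb-/- diabetic 3). For deletion in control mice they were 0 to 1 and 1 to 4, both highest without WT control 1 and the second lowest without Cfb-/- control 3, WT control 2 or WT control 3. For the interaction they were 0 to 0 and 1 to 4, highest without Cfb-/- diabetic 3 or WT control 1 and lowest without Cfb-/- diabetic 4, WT diabetic 3 or Cfb-/- control 1.

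The replicate numbers share no stated litter or day. Deviations of same-numbered mice correlated at -0.39 to 0.24 over 13 pairs, 2 of them over 0.1, and 0 of 14 mice correlated best with its own number. Besides the scalings named in the report, Ccl25 was called as lower in WT mice without WT control 1, by a log2 difference of -0.55. With the replicate number as a block, 30 genes were called in WT and 32 in Cfb-/- mice. No interaction fit was made from only the groups compared, since it needs all 4. Genes near 0.1 FPKM, such as Cxcl3, Ccr6, Ccr8 and Ackr1, rest on few fragments, and the depth that would set their error is unknown.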
